A study of Mus musculus with 6 samples.

Results

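The genes described here are 7 globin genes and 2 erythroid genes, chosen by symbol: the embryonic globins Hba-x, Hbb-y and Hbb-bh1, the adult globins Hba-a1, Hba-a2, Hbb-b1 and Hbb-b2, and Alas2 and Slc4a1. They are 9 of the 37991 genes with counts, all 9 have a row in the count and RPKM files of every embryo, and all 9 passed the filter on low counts that kept 21983 genes. The tissue was dorsal telencephalon, the roof of the embryonic forebrain, cut as fixed frozen sections from CD1 mouse embryos at E13.5. The FGF2 group is 3 embryos (numbered 6, 7 and 8) given the growth factor FGF2, 100 ng each, into the brain ventricles. The vehicle group is 3 embryos (7, 8 and 9) given PBS with 0.1% BSA by the same route. No allele or transgene is named for either group, and the labels do not state the time from injection to collection.

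Haemoglobin is a tetramer of alpha-type and beta-type globin chains, each holding a haem group. In the mouse embryo the first red cells are made in the yolk sac and carry embryonic chains (zeta from Hba-x, epsilon-y from Hbb-y, beta-h1 from Hbb-bh1) together with adult alpha chains, and as they mature Hbb-bh1 gives way to Hbb-y. Red cells made later in the fetal liver carry the adult chains, and they join the primitive cells in the circulation during midgestation. Neural tissue itself makes little globin, and globin RNA in an unperfused brain comes largely from the blood in its vessels. In bulk tissue of this kind, fewer red cells and less globin RNA per cell cannot be told apart.

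The alpha-type genes lie together on chromosome 11 and the beta-type genes on chromosome 7 (coordinates of NCBIM37, as deposited). On chromosome 11 the order is Hba-x (32176400 to 32178116), Hba-a1 (32183511 to 32184465) and Hba-a2 (32196489 to 32197301). On chromosome 7 it is Hbb-b2 (110961038 to 110962510), Hbb-b1 (110975048 to 110976610), Hbb-bh1 (110990150 to 110991678) and Hbb-y (111000259 to 111001754). The files count every read between a gene's start and end, introns included, and no globin span overlaps another gene's span. The identifiers listed as Hbb-b1 and Hbb-b2 are named Hbb-bs and Hbb-bt in GENCODE M21. Slc4a1 lies apart on chromosome 11 (102210138 to 102227517). Alas2, on chromosome X (146981918 to 147005181), lies wholly inside the span of Apex2, a DNA repair gene, so its span counts can include Apex2 reads.

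The 150 bases before the transcription start are printed for 6 genes, to show which short promoter words the embryonic and adult globins, present side by side in these embryos, have in common and which they do not. RefSeq's promoter table (GRCm38.p6, a later build than that of the counts) matched 7 of the 9 genes. Hbb-bh1 and Slc4a1 had no match, so Hba-x and Hbb-y alone stand for the embryonic globins here. Capitals mark matches on either strand to 5 words. The word CACCC is the core of sites bound by Krüppel-like factors such as Klf1, and CCAAT is a common promoter element. The word AGATAA is bound by factors of the GATA family. The remaining words are the box-like TATAAA and its neighbour ATAAAA, which can overlap each other and AGATAA.
Hba-x (chr11:32276450-32276599, plus strand): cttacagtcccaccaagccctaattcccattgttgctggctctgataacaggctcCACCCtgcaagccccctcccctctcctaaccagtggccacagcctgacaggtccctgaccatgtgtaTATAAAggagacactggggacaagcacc
Hbb-y (chr7:103853208-103853357, minus strand): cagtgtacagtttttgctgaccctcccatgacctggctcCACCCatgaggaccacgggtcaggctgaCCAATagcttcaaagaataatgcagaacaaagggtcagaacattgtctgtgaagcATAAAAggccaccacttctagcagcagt
Hba-a1 (chr11:32283522-32283671, plus strand): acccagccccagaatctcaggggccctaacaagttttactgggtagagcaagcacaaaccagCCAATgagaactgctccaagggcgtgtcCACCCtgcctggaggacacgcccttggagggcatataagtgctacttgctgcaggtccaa
Hbb-b1 (chr7:103827929-103828078, minus strand): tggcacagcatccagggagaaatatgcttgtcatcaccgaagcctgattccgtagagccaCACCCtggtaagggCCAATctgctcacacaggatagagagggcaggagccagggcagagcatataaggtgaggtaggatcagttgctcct
Hbb-b2 (chr7:103813924-103814073, minus strand): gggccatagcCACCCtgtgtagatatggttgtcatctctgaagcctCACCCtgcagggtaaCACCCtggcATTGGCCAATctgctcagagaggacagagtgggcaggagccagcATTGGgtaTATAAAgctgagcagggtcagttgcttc
Alas2 (chrX:150547267-150547416, plus strand): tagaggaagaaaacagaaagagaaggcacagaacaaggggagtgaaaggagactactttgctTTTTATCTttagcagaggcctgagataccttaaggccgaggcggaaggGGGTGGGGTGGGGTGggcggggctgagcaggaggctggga

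CACCC was present in 7 of the 7 promoters, against 37.4% of the 32851 windows of the same length in the table, and CCAAT in 5 of 7, against 24.5%. TATAAA was found in Hba-x and Hbb-b2 (7.57% of windows) and ATAAAA in Hbb-y and Alas2 (10.1%). In Hba-x, Hbb-y and Hbb-b2 the TATA-box word stood at the same place, 28 to 23 bases before the start. The tataag near the start of Hba-a1 and Hbb-b1 was not among the words searched and is unmarked. AGATAA was found only in Alas2 among the 7 (5.65% of windows). Each word was searched exactly, so near variants such as the tgataa of Hba-x were not counted. The Hba-a2 promoter, not printed, was identical to that of Hba-a1 over 147 of 147 aligned bases, while Hbb-b1 and Hbb-b2 matched at 109 of 148 aligned bases (73.6%). These matches describe the letters in the window and say nothing of which sites were in use.

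The transcripts of the 2 adult alpha genes are also nearly the same, which bears on how their reads can be assigned. The longest coding transcripts of Hba-a1 and Hba-a2 in GENCODE M21 matched at 537 of 538 aligned bases (99.8%), and 86.9% of the stretches of 50 bases in Hba-a2 also occur in Hba-a1. Hbb-b1 and Hbb-b2 matched at 580 of 626 aligned bases (92.7%), and 65.8% of the stretches of 50 bases in Hbb-b1 also occur in Hbb-b2. Embryonic and adult genes of the same type matched at 66.2% to 72.0% of aligned bases and shared 0 such stretches. Sums over each adult pair, and the contrast of embryonic with adult genes, therefore rest less on the assignment of reads than the values of Hba-a1, Hba-a2, Hbb-b1 and Hbb-b2 singly, which are uncertain.

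Library totals ran from 61489462 to 81532334 counts. In vehicle 9 every nonzero count was even (51% to 51.9% in the other libraries), and with its counts halved the total was 32112664. Of the genes tested, 799 (3.63%) passed an adjusted p of 0.05 with edgeR's quasi-likelihood test, 590 (2.68%) higher and 209 (0.951%) lower in the FGF2 embryos. In 6204 genes (28.2%) the ranges of the groups were apart in CPM, with all FGF2 embryos higher in 14.6% and lower in 13.6% of the genes tested. All 10 markers of the dorsal telencephalon were detected, with summed levels of 2132.1 to 2259.5 CPM (counts scaled to library size) in the FGF2 embryos and 2985.5 to 3173.2 in the vehicle embryos, and Emx1, Eomes, Neurog2 and Pax6 were called lower. Xist, expressed from the inactive X of females, ranged from 29 to 51 reads over FGF2 6, FGF2 7, FGF2 8 and vehicle 7. It stood at 58349 and 57904 in vehicle 8 and vehicle 9. Embryo sex thus differed within the vehicle group only, and was not balanced between the groups. The part of sex in the comparison of FGF2 with vehicle was not tested.

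Both embryonic and adult globins were abundant in all 6 embryos. On the length-scaled RPKM of the authors, Hbb-y and Hba-a1 were the highest of the 9 genes in every embryo, at 1169.0 to 2778.7 and 1351.0 to 2938.8 RPKM. They changed places between embryos: Hbb-y was above Hba-a1 in FGF2 6, FGF2 7 and vehicle 9, and below it in the other 3, so the order of this pair did not hold beyond the spread. Hba-x (260.1 to 540.6 RPKM) and Hbb-b2 (208.7 to 783.5) came next and likewise overlapped. Hbb-b1 (52.1 to 195.0) was above Hbb-bh1 (23.6 to 61.4) in all embryos but FGF2 6. Hba-a2 (10.7 to 29.9) was below both except in FGF2 8, where it was above Hbb-bh1. The non-globin genes were lowest, and Alas2 (5.48 to 9.3) was above Slc4a1 (1.94 to 5.38) in every embryo.

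**Figure D1:**
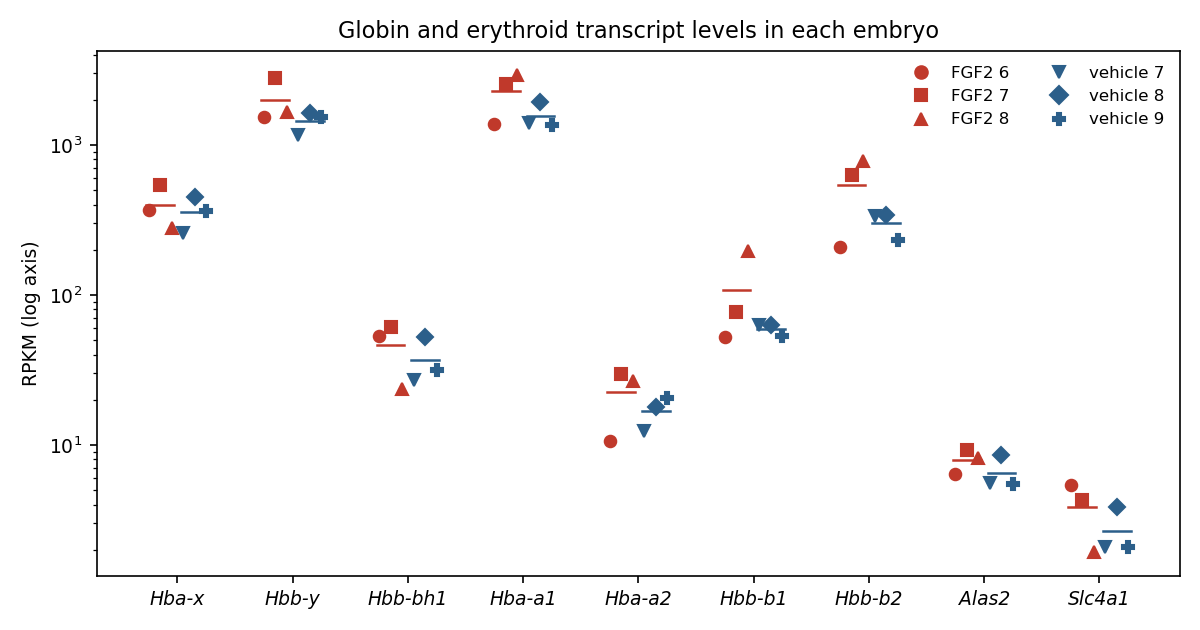
RPKM of the 9 genes on a log axis, 1 symbol per embryo (red, FGF2; blue, vehicle) and a bar at each group's mean of 3 embryos. Hbb-y (lowest value 1169.0) and Hba-a1 (1351.0) are the highest genes in all 6 embryos, the groups overlap for every gene, and FGF2 8 has the highest Hbb-b1, Hbb-b2 and Hba-a1 and the lowest Slc4a1.

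The comparison asks whether blood-borne transcripts differed after FGF2 injection. None of the 9 genes passed an adjusted p of 0.05 with edgeR (0 of 9, against 3.63% of the genes tested), and 1, Hba-a2, had an unadjusted p under 0.05 (19.3% of the genes tested). DESeq2 called 1 of the 9 (9.06% of its genes) and voom with sample quality weights 1 (9.77%), Hba-a2 both times, and limma on RPKM called 0 (3.33%). All 9 fold changes were above 0 (51.4% of the genes tested), with a median log2 fold change of 0.46 against 0.01 over all genes tested. The 9 genes come from the same blood and are not independent of each other, and most of their intervals also hold 0.

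Among the embryonic globins, Hba-x differed least. Hba-x stood at 316.7, 469.3 and 249.7 CPM in FGF2 embryos 6, 7 and 8 and at 232.5, 409.0 and 319.6 CPM in vehicle embryos 7, 8 and 9. The highest and the lowest embryo thus were an FGF2 and a vehicle embryo, with the rest interleaved. Its means were 345.2 ± 112.5 (SD, n = 3) and 320.4 ± 88.3 CPM (SD, n = 3), and its log2 fold change was 0.11 (SE 0.27, edgeR's quasi-likelihood test, adjusted p = 0.855). Its sign was negative without FGF2 7 (log2 fold change -0.18) and without vehicle 7 (-0.08).

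Hbb-y, the main embryonic beta-type gene here, stood at 965.9, 1642.1 and 1070.4 CPM in the FGF2 embryos and 729.4, 1036.8 and 961.3 CPM in the vehicle embryos. FGF2 7 was far above the others, and FGF2 6 lay among the vehicle embryos. The means were 1226.1 ± 364.0 and 909.2 ± 160.2 CPM (SD, n = 3 each), a 1.35-fold difference with a 95% interval of 0.949 to 1.92 (adjusted p = 0.334, edgeR). Hbb-bh1, the earliest beta-type chain, was much lower, at 30.0, 33.9 and 14.4 CPM against 15.9, 30.8 and 18.3 CPM. Here FGF2 8 was the lowest of the 6 embryos and FGF2 7 the highest (log2 fold change 0.27, SE 0.36, adjusted p = 0.732, edgeR).

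Hba-a1, the main adult alpha gene in these libraries, stood at 1029.8, 1929.9 and 2175.6 CPM in the FGF2 embryos and 1041.6, 1455.5 and 1038.8 CPM in the vehicle embryos. FGF2 7 and FGF2 8 were above every vehicle embryo, and FGF2 6 was below all of them. The means were 1711.8 ± 603.3 and 1178.6 ± 239.8 CPM (SD, n = 3 each), 1.45-fold apart with a 95% interval of 0.934 to 2.26 (adjusted p = 0.336, edgeR).

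Hba-a2 was the only one of the 9 whose groups did not overlap in CPM (all FGF2 embryos higher, as in 14.6% of the genes tested). It stood at 54.8, 103.0 and 45.2 CPM in the FGF2 embryos, and at 20.2, 27.8 and 14.3 CPM in the vehicle embryos. The fold was 3.26 with a 95% interval of 1.82 to 5.84 (unadjusted p = 0.00189, adjusted p = 0.0506, edgeR), just outside the threshold, and over the alternative settings the adjusted p ran from 0.00624 to 0.795. In the deposited RPKM the same gene stood at 10.7, 29.9 and 26.8 in the FGF2 embryos and 12.3, 17.8 and 20.4 in the vehicle embryos, and the groups overlapped. On the log2(RPKM + 1) scale its difference was 0.30 (limma, adjusted p = 0.693).

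The 2 deposited quantities did not move together for this gene. The unscaled CPM divided by RPKM, times a kilobase, gives the transcript length, in bases, that the pair of values implies. For Hba-a2 it was 5287.8, 3493.8 and 1677.4 bases in the FGF2 embryos and 1626.4, 1534.2 and 689.3 in the vehicle embryos, where the longest coding transcript has 554 bases. For Hba-a1 it stayed between 736.7 and 775.1 bases (transcript 699), and for Hbb-y between 600.1 and 645.3 (633). For Hbb-b1, of the other adult pair, it varied more, from 807.9 to 1107.5 bases (628). Hba-a2 reads were a small part of the adult alpha reads, 5.05%, 5.07% and 2.04% in the FGF2 embryos and 1.9%, 1.87% and 1.36% in the vehicle embryos. With the reads of Hba-a1 and Hba-a2 added together, the log2 fold change was 0.57 and the adjusted p 0.30 (edgeR). Which reads of this near-identical pair entered each quantity was not tested.

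**Figure D2:**
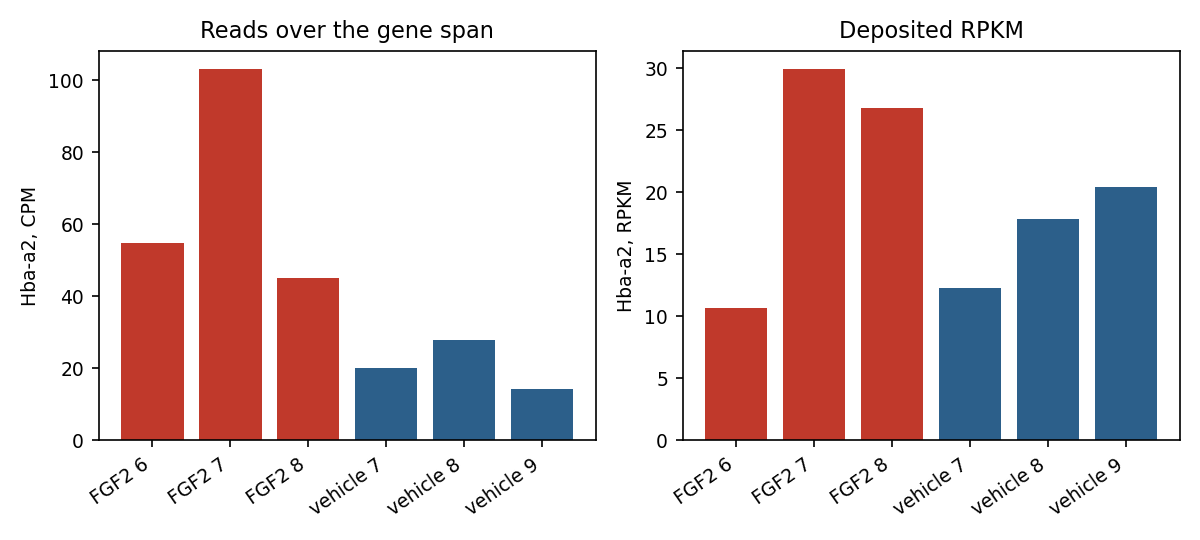
Hba-a2 in each embryo as CPM from reads over the gene span (left) and as deposited RPKM (right), red for FGF2 and blue for vehicle, with axes from 0. The lowest FGF2 embryo is above the highest vehicle embryo in CPM (45.2 against 27.8), while in RPKM FGF2 6 is the lowest of all at 10.7.

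Of the adult beta genes, Hbb-b1 was high in FGF2 8 alone. Hbb-b1 stood at 54.1, 60.8 and 217.1 CPM in the FGF2 embryos and 61.0, 63.2 and 45.7 CPM in the vehicle embryos. The FGF2 embryos other than FGF2 8 lay within the range of the vehicle embryos, and the means were 110.6 ± 92.2 and 56.6 ± 9.56 CPM (SD, n = 3 each). Its log2 fold change was 0.97 (SE 0.56, adjusted p = 0.411, edgeR) and 0.02 without FGF2 8. In vehicle 9 the Hbb-b1 reads covered 20.5% of the gene span, against 94.1% to 94.9% in the other 5 embryos. Vehicle 9 was also the embryo with the fewest Hbb-b1 reads, 2876, against 3731 to 13960 in the others.

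Hbb-b2 was the more abundant adult beta gene in every embryo. It stood at 136.8, 394.5 and 531.2 CPM in the FGF2 embryos and 221.5, 228.7 and 155.5 CPM in the vehicle embryos. FGF2 7 and FGF2 8 were above every vehicle embryo and FGF2 6 was the lowest of all, the same order as for Hba-a1 in the FGF2 group. The fold was 1.75 with a 95% interval of 0.82 to 3.75 (adjusted p = 0.394, edgeR). Without FGF2 6 its log2 fold change was 1.19 and the adjusted p 0.0314. Hbb-b1 reads made up 28.3%, 13.3% and 29% of the adult beta reads in the FGF2 embryos and 21.6%, 21.7% and 22.7% in the vehicle embryos. That split was even within the vehicle group and uneven within the FGF2 group, where FGF2 7 had the smallest Hbb-b1 part.

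Alas2 encodes the erythroid form of the first enzyme of haem synthesis. It stood at 16.5, 23.0 and 21.4 CPM in the FGF2 embryos and 15.3, 22.1 and 15.4 CPM in the vehicle embryos, with means of 20.3 ± 3.39 and 17.6 ± 3.89 (SD, n = 3 each). The log2 fold change was 0.21 (SE 0.18, adjusted p = 0.593, edgeR). Though X-linked, Alas2 did not separate the embryos by Xist: vehicle 8 and vehicle 9, with high Xist, were at 22.1 and 15.4 CPM. Slc4a1, which encodes band 3, the anion exchanger of the red cell membrane, stood at 23.7, 19.0 and 8.77 CPM against 9.75, 17.9 and 9.84 CPM. FGF2 8 was the lowest of the 6 embryos in Slc4a1, and FGF2 6 the highest (log2 fold change 0.46, SE 0.38, adjusted p = 0.561, edgeR). Hbb-bh1 fell into the same order of high and low embryos: FGF2 6, FGF2 7 and vehicle 8 were above FGF2 8, vehicle 7 and vehicle 9 for both genes. Spna1 (alpha-spectrin of the red cell skeleton, named here after its values were seen) was split the same way, at 2.54, 1.64 and 1.03 CPM in the FGF2 embryos and 1.18, 2.12 and 0.825 CPM in the vehicle embryos.

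**Figure D3:**
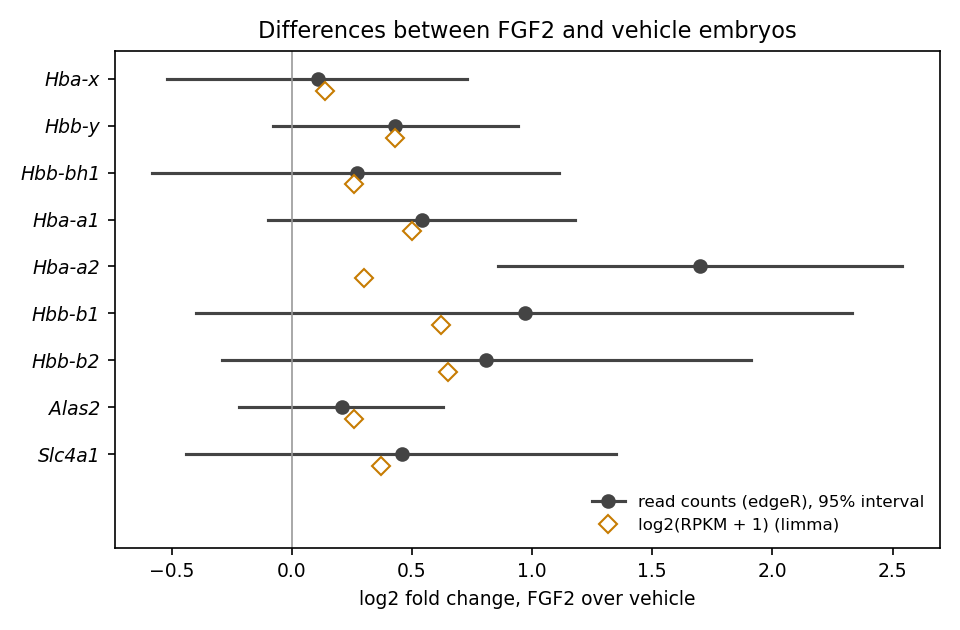
Log2 fold change of each of the 9 genes, FGF2 over vehicle: filled circles from read counts with 95% intervals (edgeR), open diamonds from log2(RPKM + 1) (limma, no interval drawn). The interval leaves out 0 for Hba-a2 alone, at 0.86 to 2.54, and its RPKM difference is 0.30.

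Summed over the 7 globin genes, the erythroid content was 2588.0, 4633.4 and 4303.5 CPM in the FGF2 embryos and 2322.1, 3251.8 and 2553.6 CPM in the vehicle embryos. Globin reads were thus 0.267%, 0.471% and 0.428% of all counted reads in the FGF2 embryos and 0.231%, 0.319% and 0.25% in the vehicle embryos. FGF2 7 and FGF2 8 were above every vehicle embryo, and FGF2 6 lay between vehicle 9 and vehicle 8. The means were 3841.7 ± 1098.1 and 2709.2 ± 483.9 CPM (SD, n = 3 each), a ratio of 1.42. With 3 embryos in each group the smallest two-sided permutation p is 0.1, and this sum was given no test. The alpha-type to beta-type ratio of the summed RPKM was near 1 throughout, at 0.943, 0.876 and 1.22 in the FGF2 embryos and 1.04, 1.14 and 0.934 in the vehicle embryos.

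Embryonic and adult globins contributed about equally to that content, with FGF2 8 apart. The embryonic genes summed to 1312.6, 2145.2 and 1334.4 CPM and the adult genes to 1275.4, 2488.2 and 2969.1 CPM in the FGF2 embryos. In the vehicle embryos the embryonic genes summed to 977.8, 1476.6 and 1299.3 CPM and the adult genes to 1344.3, 1775.1 and 1254.3 CPM. The embryonic to adult ratio of reads was 1.03, 0.862 and 0.449 in the FGF2 embryos and 0.727, 0.832 and 1.04 in the vehicle embryos. On the RPKM scale it was 1.2, 1.03 and 0.5 against 0.807, 0.913 and 1.16. On both scales FGF2 8 was the lowest of the 6 embryos, and the rest overlapped. The group means of the read ratio were 0.78 ± 0.298 and 0.865 ± 0.157 (SD, n = 3 each), closer together than the embryos within either group.

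The alpha and beta families differed in how far embryonic chains prevailed. Hba-x made up 22.6%, 18.8% and 10.1% of the alpha-type reads in the FGF2 embryos and 18%, 21.6% and 23.3% in the vehicle embryos. Hbb-y and Hbb-bh1 together made up 83.9%, 78.6% and 59.2% of the beta-type reads in the FGF2 embryos and 72.5%, 78.5% and 83% in the vehicle embryos. The embryonic part was thus the minority of alpha-type reads and the majority of beta-type reads in each of the 6 embryos. Exact (Clopper-Pearson) 95% binomial intervals of these shares reached at most 0.28 and 0.35 percentage points to a side. Such intervals cover counting error only and are narrower than they should be where mates count as separate reads.

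The 2 shares ranked the embryos in nearly the same way: FGF2 8 was lowest and vehicle 7 next lowest in both, and FGF2 6 and vehicle 9 were the highest in both. FGF2 8 lay 7.9 points below the next embryo in the alpha share and 13.3 points below in the beta share. The group means were 17.2% ± 6.4 and 21% ± 2.72 for the alpha share and 73.9% ± 13 and 78% ± 5.25 for the beta share (SD, n = 3 each). The differences of -3.8 and -4.09 points were smaller than the SD of the FGF2 group. Without FGF2 8 they were -0.275 and 3.28 points, so the sign of the beta difference rested on that embryo. Within the embryonic beta reads, Hbb-bh1 was 3.02%, 2.02% and 1.32% in the FGF2 embryos and 2.14%, 2.89% and 1.87% in the vehicle embryos, again lowest in FGF2 8.

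**Figure D4:**
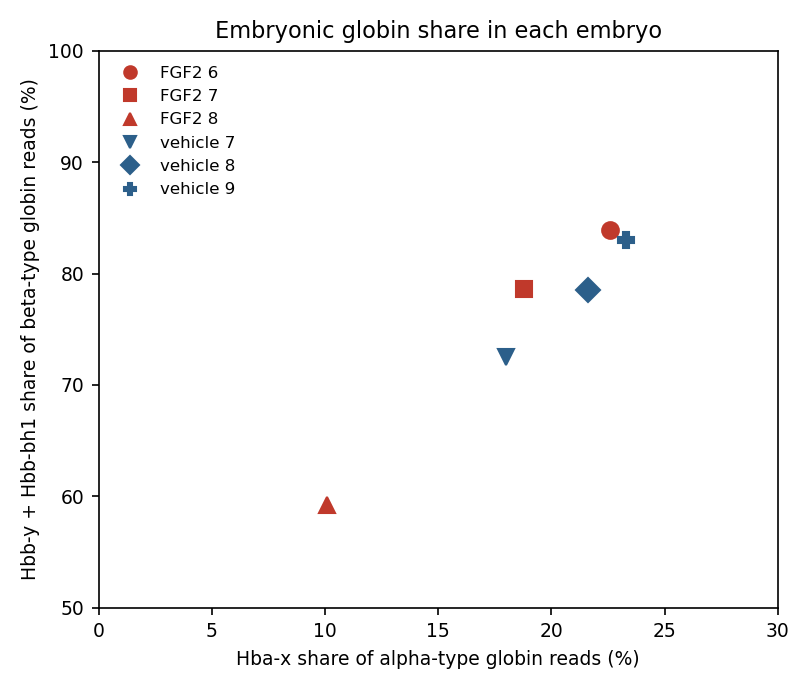
Embryonic share of alpha-type reads (x axis, Hba-x, percent) and of beta-type reads (y axis, Hbb-y and Hbb-bh1, percent, axis from 50%), 1 symbol per embryo. FGF2 8 stands apart at 10.1% and 59.2%, while the other 5 embryos lie between 18% and 23.3% and between 72.5% and 83.9%, with the groups mixed.

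Globin content was also set against the non-globin red cell genes. The summed globin RPKM per RPKM of Alas2 was 563.6, 715.3 and 721.3 in the FGF2 embryos and 586.6, 524.0 and 654.4 in the vehicle embryos, a narrow range for both groups. Per RPKM of Slc4a1 it was 671.3, 1538.3 and 3046.9 in the FGF2 embryos and 1564.8, 1155.6 and 1717.5 in the vehicle embryos. FGF2 6 was the lowest and FGF2 8 the highest of the 6 in that ratio. The adult genes stood at 305.4, 756.6 and 2031.4 per Slc4a1 in the FGF2 embryos, and the embryonic genes at 366.0, 781.7 and 1015.5. Between FGF2 6 and FGF2 8 the embryonic sum itself was nearly level, at 1968.3 and 1971.6 RPKM, the adult sum went from 1642.4 to 3944.1 RPKM, and Slc4a1 from 5.38 to 1.94 RPKM. Both the numerator and the denominator thus differed between these embryos. Alas2 per Slc4a1 was 1.19, 2.15 and 4.22 in the FGF2 embryos and 2.67, 2.21 and 2.62 in the vehicle embryos. The 3 vehicle embryos were close to each other in this ratio and the FGF2 embryos lay on both sides of them.

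**Figure D5:**
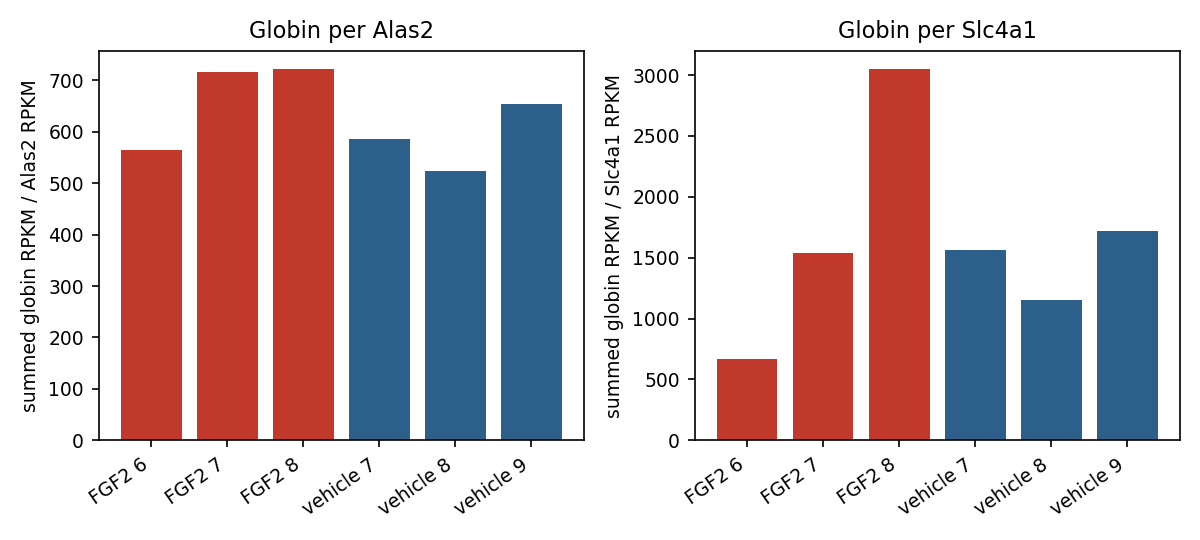
Summed RPKM of the 7 globins divided by the RPKM of Alas2 (left) and of Slc4a1 (right) in each embryo, red for FGF2 and blue for vehicle, with axes from 0. Per Alas2 the embryos lie between 524.0 and 721.3, and per Slc4a1 between 671.3 (FGF2 6) and 3046.9 (FGF2 8).

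Other genes of red cells were read from 7 lists, of which 78 genes were tested, against a background of 3.63% of all genes called. Of the 12 other genes of haem synthesis, 0 passed the test (median log2 fold change 0.0), and the smallest p belonged to Uros and Urod, enzymes in the middle of the pathway (adjusted p = 0.451 and 0.523, edgeR). Of 11 genes of iron and haem handling, 0 passed either (median -0.01), and Fth1, the ferritin heavy chain, was at 454.0 ± 57.3 against 369.8 ± 19.9 CPM (SD, n = 3 each, adjusted p = 0.191, edgeR). Hp, the plasma haemoglobin binder haptoglobin, had an adjusted p of 0.261. Of 17 red cell membrane genes, 0 passed (median 0.07). Epb4.9 (dematin, of the membrane skeleton) stood at 13.2 ± 2.48 against 6.48 ± 1.76 CPM (adjusted p = 0.0567, edgeR), and Xk, a membrane protein, at 7.57 ± 2.02 against 12.2 ± 1.9 CPM (SD, n = 3, adjusted p = 0.144). Of 13 genes of the red cell cytosol and maturation, 0 passed (median 0.28), among them Bpgm, which makes 2,3-bisphosphoglycerate (adjusted p = 0.111), and Trim10, a gene of late erythroid cells (adjusted p = 0.190). At an unadjusted p under 0.05 (19.3% of all genes tested) the haem, iron, membrane and cytosol lists had 0, 1, 5 and 5 genes. DESeq2 called 0, 0, 3 and 0 of them (9.06% of its genes), voom with sample quality weights 0, 1, 2 and 2 (9.77%), and limma on RPKM 0 of each (3.33%).

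The list of 12 erythroid factors held transcription factors, their partners and the erythropoietin receptor. Of these, 1 rose and 0 fell (median 0.28), against 2.68% and 0.951% of all genes tested. At an unadjusted p under 0.05 there were 3, the receptor among them (19.3% of all genes tested). DESeq2 called 1 (9.06% of its genes), voom with sample quality weights 3 (9.77%) and limma on RPKM 1 (3.33%). Lmo2, a bridging protein of the GATA1 and TAL1 complex that endothelial cells also express, rose from 13.9 ± 0.478 to 21.9 ± 0.822 CPM (SD, n = 3 each, adjusted p = 0.0107, edgeR). The call of Lmo2 was lost without vehicle 7, vehicle 8 or vehicle 9 (adjusted p = 0.0555 to 0.0748, edgeR). It was also lost under a replicate block (0.138), which takes the embryo number as a factor and rests on embryos 7 and 8 of each group. Klf1, the erythroid Krüppel-like factor, stood at 0.99 ± 0.453 against 0.432 ± 0.0836 CPM (SD, n = 3, adjusted p = 0.180). Gata1 (named after its values were seen) was near the limit of detection, at 0.998, 0.578 and 0.28 CPM in the FGF2 embryos and 0.294, 0.419 and 0.0635 in the vehicle embryos.

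Of 10 regulators of globin switching, 1 rose and 1 fell (median -0.09), against 2.68% and 0.951% of all genes tested. The groups did not overlap in CPM in 8 of the 10, against 28.2% of all genes tested. At an unadjusted p under 0.05 there were 5 (19.3% of all genes tested), 2 of them higher. DESeq2 called 4 (9.06% of its genes), voom with sample quality weights 3 (9.77%) and limma on RPKM 0 (3.33%). Sox6, a repressor of embryonic beta-globin in red cells that neural cells also express, fell from 111.2 ± 9.38 to 75.6 ± 3.79 CPM (SD, n = 3 each, adjusted p = 0.0159, edgeR). Lin28a, an RNA-binding protein of early embryonic cells, rose and had 153, 66 and 35 reads in the FGF2 embryos and 10, 3 and 4 in the vehicle embryos (log2 fold change 3.59, SE 0.64, adjusted p = 0.0264, edgeR). The call of Sox6 was lost without FGF2 7, vehicle 7 or vehicle 8 (adjusted p = 0.0641 to 0.0884), and with limma on RPKM (0.0798 to 0.127). That of Lin28a held only without FGF2 8 among the fits that left out 1 embryo, and was lost without any other (0.0568 to 0.125). Most genes of this list are expressed widely, so in this tissue their levels are not a measure of red cells.

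Of 3 other globins tested, 0 passed. Hbq1b, an alpha-like globin gene of the chromosome 11 cluster, had the smallest p: 1.99, 6.16 and 5.38 CPM in the FGF2 embryos against 1.01, 1.56 and 1.81 CPM in the vehicle embryos. The groups did not overlap in CPM, and the adjusted p was 0.0943 (edgeR), with a range of 0.0205 to 0.284 when single embryos were left out. Under the replicate block, which rests on embryos 7 and 8 of each group, it was 0.00352. In RPKM the groups overlapped, with FGF2 8 at 0.334 and vehicle 9 at 0.766. DESeq2 called Hbq1b, and voom and limma did not. Ngb, the neuronal globin, had an adjusted p of 0.749.

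Markers of other cells in blood and vessels were read beside these values, and their calls stand against the 3.63% of all genes tested that were called (2.68% higher, 0.951% lower). Of 16 endothelial genes (median log2 fold change 0.03) 1 was called, Slco1a4, a transporter of brain vessels. Slco1a4 had few reads, 25, 103 and 99 in the FGF2 embryos and 0, 4 and 0 in the vehicle embryos. The summed level of the endothelial list was 336.4 to 375.0 CPM in the FGF2 and 312.4 to 359.1 CPM in the vehicle embryos. Of 14 genes of microglia and macrophages 5 were called and rose (Ctss, Tyrobp, C1qb and Lyz2 among them), with a summed level of 175.3 to 209.7 CPM against 115.7 to 139.6 CPM. Of 10 platelet genes 0 were called, with 54.3 to 90.4 against 60.1 to 64.0 CPM. Most of that sum was Gp1bb, whose span overlaps another gene (79.3 CPM in FGF2 8), and without it the sums were 11.1 to 15.3 against 9.56 to 14.4 CPM. Of 5 white blood cell genes tested 1 was called, Ptprc, with summed levels over the list of 9.9 to 18.8 against 7.3 to 8.19 CPM (4.36 to 13.0 against 2.65 to 3.46 CPM without Prtn3, its most abundant gene). Of 9 pericyte genes 0 were called, with 120.9 to 165.1 against 104.3 to 122.4 CPM. The sums of the microglial and the white blood cell lists were higher in each FGF2 embryo than in any vehicle embryo, and the globin sum in 2 of the 3. Of the 5 white blood cell genes tested, the groups were apart in CPM for 2, Ptprc and Prtn3 (28.2% of all genes tested). Mpo was at 0.119, 2.75 and 0.124 CPM in the FGF2 embryos and 0.327, 0.209 and 0.762 CPM in the vehicle embryos. The white blood cell sum thus did not rise in all its genes, and which cells carried the Ptprc reads was not tested. The part of microglia and white blood cells in the globin values was not tested. Without FGF2 8, FGF2 6 or FGF2 7, the microglial list had 7, 3 and 1 calls (1943, 517 and 405 over all genes). Without any 1 vehicle embryo it had 0 calls (218 to 307 over all genes). For 3 endothelial, 11 microglial, 1 platelet, 1 white blood cell and 2 pericyte genes the unadjusted p was under 0.05. That was so for 19.3% of all genes tested. DESeq2 called 1, 8, 0, 1 and 0 genes of these lists (9.06% of its genes), and voom with sample quality weights the same numbers (9.77%). With limma on RPKM 5 microglial genes and 0 in the other lists were called (3.33%).

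Genes of the liver, where definitive red cells form, had few reads. Without Ttr, the 11 liver genes, Alb and Afp among them, had 42, 47 and 43 reads in all in the FGF2 embryos and 38, 47 and 44 in the vehicle embryos, and 1 of the 11 had no read in any embryo. Ttr, which the choroid plexus also makes, was called higher, with 4971, 8913 and 25204 reads against 20, 6 and 28. Within the FGF2 group Ttr thus ranked the embryos as Hba-a1 and Hbb-b2 did. Its part in those values was not tested.

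The genes whose levels followed the summed globin level most closely over the 6 embryos were ranked by Pearson's r of log2 CPM, as a description with no p, over the 17390 genes whose mean CPM was 1 or more. The first 10 were Cd9 (r = 0.990), Ribc1 (0.986), Tnfaip2 (0.982), Mical2 (0.979), Cldn7 (0.979), 0610031J06Rik (0.978), Pfdn2 (0.975), Magohb (0.974), Mrps16 (0.970) and Coro1a (0.969). None of these 10 was called in the comparison of FGF2 with vehicle. The points share libraries and scaling, and the ranking says nothing of shared function.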

How the data were processed

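Per the labels' protocols, the RNA of fixed sections was treated with DNase and sequenced as paired ends on an Illumina HiSeq instrument. The submitters' processing notes name NCBIM37 (mm9) and CASAVA 1.8, together with TopHat2 2.0.9, Bowtie2 2.1.0.0 and bedtools. The deposited count files hold whole counts of alignments over each gene span, and the fraction of the span covered. The use of strand, and the tool behind the deposited RPKM values (joined to 34290 genes by symbol), are not given in the sources used here.

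Counts were tested as deposited over all 6 embryos with edgeR 4.0.16 in R 4.3.3 (filterByExpr, TMM, robust glmQLFit, glmQLFTest, Benjamini-Hochberg adjustment over 21983 genes), with limma 3.58.1 on log2(RPKM + 1) and DESeq2 1.42.0 as alternatives. CPM values use TMM library sizes. Each library is 1 embryo, and the labels do not say whether embryos shared a litter. Sums and ratios over globins are given per embryo with no test. The steps were tested on simulated counts.

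The 9 genes, the gene lists and the alternatives were chosen with earlier results of these data known. Named were the 9 genes, in each erythroid list every called gene and the 2 with the smallest p, in lists of other cells at most 4 called genes, and the 10 genes most like the globin sum. The alternative that summed each adult pair was chosen after seeing the data.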

Additional observations from a re-analysis of the deposited data

How the results depend on the processing

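Over all genes, 799 were called (73.8% of them higher in FGF2 embryos). Leaving out each embryo in turn gave 218 to 1943 called genes, the most without FGF2 8 (49.6% higher) and the fewest without vehicle 8, with 517 without FGF2 6, 405 without FGF2 7, 242 without vehicle 7 and 307 without vehicle 9. Voom with sample quality weights called 2148 (56.8% higher), DESeq2 2065 (65.8%), and limma on log2(RPKM + 1), log2(RPKM + 0.1) and log2(RPKM + 1) without a filter 463, 436 and 439. The cause of these differences was not tested. RLE scaling, library totals, both other count filters, vehicle 9 halved, erythroid genes left out of the scaling and summed adult pairs gave 741 to 852. Library totals moved the share called higher to 82%. The embryo numbers 7 and 8 occur in both groups, but same-numbered embryos did not deviate together (r = -0.038 and -0.03 over 21983 genes, only 2 pairs). The numbers 6 and 9 occur in 1 group each. With the number as a replicate block, the FGF2 effect thus rested on embryos 7 and 8 of each group. That fit called 703 genes, Hbb-b2 among them (log2 fold change 1.02, adjusted p = 0.00587, edgeR). There Hbq1b was called (0.00352), Lmo2 was not (0.138), and the signs of Hbb-bh1 (-0.01) and Slc4a1 (-0.03) turned. Within the FGF2 group, FGF2 6, which that fit sets aside, was lowest for both Hbb-b2 and Hbq1b. Hba-x turned sign without FGF2 7 (-0.18) and without vehicle 7 (-0.08), within a range of -0.18 to 0.32 as each embryo was left out. Hba-a2 was called with library totals (adjusted p = 0.0482), the filter of 1 CPM (0.0437), vehicle 9 halved (0.0495), voom with quality weights (0.012) and DESeq2 (0.00624), and in none of the other 14 alternatives. Hbb-b2 was also called without FGF2 6. The other 7 genes were called in none of the 19 alternatives tried for each. The log2 ratio of the summed globin CPM was 0.50, and 0.35 to 0.72 over its alternatives. These 9 genes had 564 to 139925 reads in each embryo.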

Other observations

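Rows of other globin loci held few reads. Hbb-bh0, a pseudogene of the beta cluster, had 122, 160 and 88 reads in FGF2 embryos 6, 7 and 8 and 70, 100 and 88 in vehicle embryos 7, 8 and 9. Hbb-bh2 had 0, 9 and 1 reads in the FGF2 embryos and 0 in each vehicle embryo, and Hbb-bh3 had 0 in all 6.

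Some genes of neutrophils and their precursors had most of their reads in FGF2 7. S100a9 had 142 reads in FGF2 7 and 0 in each of the other 5 embryos. S100a8 had 85 reads there, 2 in FGF2 6 and 0 in the other 4. Ngp had 121 and Mpo 195 reads in FGF2 7, against at most 4 and 48 in any other embryo. The span of Mpo overlaps another gene's span, as does that of Prtn3. Prtn3, of the same list, did not follow the others. It had 466, 413 and 486 reads in the FGF2 embryos and 316, 311 and 298 in the vehicle embryos. These genes were chosen after their values were seen.

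The share of the gene span covered by reads also differed between libraries for some of the 9 genes. Slc4a1 was covered over 72.2% of its span in FGF2 8 and 70.2% in vehicle 9, against 93.5% to 94.1% in the other 4 embryos. Alas2 was covered over 81.3% in vehicle 9 and over 99.7% to 100% in the others. Over all genes the mean covered share was 46.4% in vehicle 9 and 50.2% to 53.4% in the other embryos.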
